A study of Mus musculus with 18 samples.

Results

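The Schlafen genes are a family of vertebrate genes that lie side by side in the mouse genome. The genes described here are Slfn1, Slfn2, Slfn3, Slfn5, Slfn8 and Slfn9, which are 6 of the 46078 genes in the deposited count table and were found there by symbol. They were chosen by a measured value, because Slfn5 had among the smallest p-values of all genes when liver natural killer (NK) cells carrying RARα403 were compared with control NK cells. Values of the members from that contrast are therefore given as a description with no test. All 6 genes passed the filter on low counts, as 6 of 14714 genes in all.

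Bulk RNA-seq covered 18 libraries, each made from 200 sorted cells of C57BL/6 mice aged 8 weeks. The 6 groups, with 3 libraries each, were liver NK cells, liver type 1 innate lymphoid cells (ILC1s) and spleen ILC1s, each from Ncr1-Cre Rosa26-RARα403 mice and from control mice that carried Ncr1-Cre alone. All mice thus carried Ncr1-Cre, which puts Cre recombinase under the gene of the receptor NKp46. RARα403 is a truncated retinoic acid receptor alpha that acts as a dominant negative, and here it is switched on by Cre from the Rosa26 locus. Cells were sorted as CD3-negative, NK1.1-positive and NKp46-positive, with CD49a, CD49b and, for ILC1s, IL-7R separating the populations. Whether any libraries came from the same mouse is not stated, so p-values measure the spread between these libraries, which may be technical.

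Schlafen proteins share an N-terminal core that can bind and, in some members, cut RNA, and the family is known for interferon-induced expression in lymphocytes and myeloid cells. The short members, Slfn1 and Slfn2, hold little beyond that core. Slfn3 is of intermediate length, and the long members, Slfn5, Slfn8 and Slfn9, add a helicase-like part. In mice, Slfn2 is known to be needed for T cells to stay quiescent and survive, and Slfn1 was described as a gene that slows thymocyte growth when forced on. Human SLFN5 has been described as a nuclear factor that restrains transcription of interferon-stimulated genes.

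The promoters of the members with the largest differences and of the near-identical pair Slfn8 and Slfn9 are printed to show what lies before each start. Each is the 250 bases before the RefSeq start on build GRCm38.p6 of chromosome 11, written along the gene's own strand from 5′ to 3′. Slfn5 is at chr11:82951852-82952101 on the plus strand, Slfn1 at chr11:83116570-83116819 on the plus strand, Slfn8 at chr11:83020811-83021060 on the minus strand and Slfn9 at chr11:82991831-82992080 on the minus strand. Capitals mark the core of an interferon-stimulated response element, searched on both strands as GAAA, any 2 bases and GAAA.
Slfn5: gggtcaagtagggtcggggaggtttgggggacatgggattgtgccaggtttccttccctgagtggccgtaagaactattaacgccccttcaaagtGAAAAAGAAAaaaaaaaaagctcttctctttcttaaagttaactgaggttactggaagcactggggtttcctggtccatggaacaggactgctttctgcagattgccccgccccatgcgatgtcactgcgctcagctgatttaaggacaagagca
Slfn8: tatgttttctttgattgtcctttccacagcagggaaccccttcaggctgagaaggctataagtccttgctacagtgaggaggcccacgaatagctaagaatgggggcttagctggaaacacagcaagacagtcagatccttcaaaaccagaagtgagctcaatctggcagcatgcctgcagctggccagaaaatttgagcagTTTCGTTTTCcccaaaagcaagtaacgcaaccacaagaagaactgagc
Slfn9: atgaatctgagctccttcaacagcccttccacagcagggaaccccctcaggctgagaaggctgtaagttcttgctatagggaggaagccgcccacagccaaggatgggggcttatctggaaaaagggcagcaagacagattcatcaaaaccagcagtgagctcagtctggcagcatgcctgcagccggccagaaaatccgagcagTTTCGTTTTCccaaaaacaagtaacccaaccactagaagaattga
Slfn1: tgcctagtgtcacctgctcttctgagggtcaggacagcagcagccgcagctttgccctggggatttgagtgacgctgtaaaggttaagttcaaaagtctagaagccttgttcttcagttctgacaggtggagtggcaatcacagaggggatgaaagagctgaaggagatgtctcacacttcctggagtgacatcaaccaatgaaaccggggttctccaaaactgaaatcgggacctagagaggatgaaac
Promoter windows of 300 bases, which add 50 bases after the start, were found for 6 of 6 members. The interferon core was present in the windows of Slfn5, Slfn8 and Slfn9, and its letters were not in those of Slfn1, Slfn2 and Slfn3. Of 32851 promoter windows in the RefSeq table, 3.44% held it. In Slfn8 and Slfn9 it was the same run of letters, TTTCGTTTTC, at 48 and 45 bases before the start printed, and in Slfn5 it began 155 bases before it. Slfn8 has another RefSeq start, from which the same site lies 136 bases upstream. The printed Slfn5 bases lie inside the span that GENCODE M21 gives the gene, which starts at base 82951349. They are upstream of the RefSeq start but not of that one. The letters AGGTCA, a form of the retinoic acid receptor core site that 16.3% of all windows held, were in the window of 0 of the 6 members. Only these exact letters were searched, so other forms of the site are not counted. GGGTCA, which differs in the first base only, stands in the printed Slfn5 and Slfn1 sequences. Direct repeats of AGGTCA with any 5 or any 2 bases between, each in 0.00913% of windows, were also in 0 of the 6. The STAT site TTCNNNGAA, in 8.3% of windows, was in 0 of the 6 as well. A match is a description of these letters and says nothing about binding.

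On build mm10 the cluster runs along chromosome 11 in the order Slfn5, Slfn9, Slfn8, the pseudogene Slfn10-ps, Slfn2, Slfn1, Slfn4, Slfn3 and Slfn14. Slfn5 spans bases 82951349 to 82964840 on the plus strand, and Slfn3, the member farthest from it, spans 83191330 to 83215154 on the plus strand. Slfn9, from 82978390 to 82991830, and Slfn8, from 83002158 to 83020810, lie on the minus strand. Slfn2, from 83065112 to 83070678, and Slfn1, from 83116849 to 83122670, lie on the plus strand between Slfn8 and Slfn3. The coding sequence is 1011 bases long in Slfn1, 1134 in Slfn2, 1920 in Slfn3, 2652 in Slfn5 and 2730 in both Slfn8 and Slfn9.

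Slfn8 and Slfn9 are 92.7% identical over their aligned coding bases. The 14 other pairs of members lie between 63.2% (Slfn3 with Slfn9 and Slfn5 with Slfn8) and 76.2% (Slfn2 and Slfn3). Of all runs of 50 bases in its transcripts, Slfn8 shares 14.6% with another Schlafen gene and Slfn9 shares 11.2%, most of them with the pseudogene Slfn10-ps. Slfn3 shares 7.39%, Slfn2 4.27% and Slfn1 0.606%, each mostly with Slfn4, and Slfn5 shares 0 such runs. No source used here states how reads with several alignments were counted, so levels of Slfn8, Slfn9 and Slfn10-ps are uncertain where reads fell in shared runs. Slfn5os, an antisense gene that overlaps Slfn5, had 1 count over all libraries, and without a stated strand setting its reads and those of Slfn5 cannot be told apart.

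**Figure D1:**
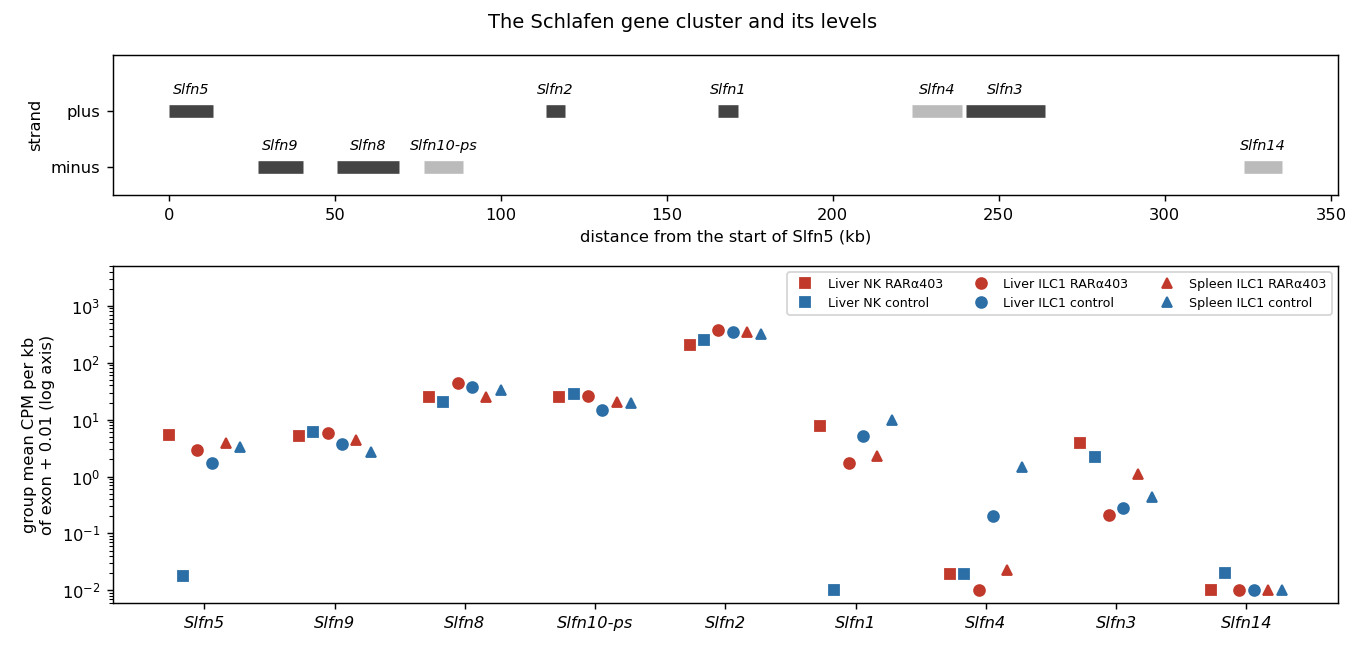
The Schlafen cluster on chromosome 11. Top, gene bodies by distance in kb from the start of Slfn5, members dark and other family genes light, by strand; bottom, the mean level of each gene in each of the 6 groups of 3 libraries as CPM per kb of exon plus 0.01 on a log axis. Slfn2 is highest in every group and Slfn5 and Slfn1 drop to the bottom of the axis in control NK cells.

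Total counts per library ran from 3452279 to 9038767, and 3 counts, used as the floor of detection, stand for 0.332 to 0.869 CPM of the library total. CPM elsewhere are counts scaled to the library total times its TMM normalization factor, which was 0.680 in liver NK RARα403 replicate 1. That library stood apart from the rest. Of 2735 genes above 50 CPM in the 17 other libraries, 192 had at most 3 counts in it, and its mean correlation with its own group was 0.633. Results that rest on it are given with and without it. Ncr1, which encodes NKp46, was at 1078 CPM or more in all libraries. The 8 ILC1 markers summed to 1614 to 3657 CPM in ILC1 libraries, against 41.4 to 408 CPM in NK libraries, and the 9 NK markers to 228 to 1255 CPM in ILC1 libraries, against 4406 to 6662 CPM in NK libraries. Mouse Rara, whose reads need not include those of the transgene, was at 22.5 to 428 CPM in RARα403 libraries and 25.6 to 46.5 CPM in control libraries, with 428 CPM in liver NK RARα403 replicate 1 and at most 54.8 CPM in the other RARα403 libraries. The 7 T cell markers summed to 144 to 553 CPM in ILC1 libraries, against 1.71 to 17.8 CPM in NK libraries, although the sort was CD3-negative. The 5 B cell markers reached 1556 CPM in spleen ILC1 control replicate 3.

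Slfn2 was the most abundant member in 18 of 18 libraries and Slfn8 came next in 18 of 18, on the scale of CPM per kb of exon. Slfn2 ran from 109 to 420 CPM per kb with a median of 323, Slfn8 from 12 to 59.4 with a median of 30.8, and Slfn9 from 0.491 to 8.11 with a median of 4.86. The ratio of the Slfn2 level to the Slfn8 level per kb ranged from 3.93 to 33.4 between libraries. Slfn5 reached at most 13.1 CPM per kb, Slfn1 at most 22.3 and Slfn3 at most 8.67. These low members were absent from some libraries, with Slfn1 at 0 counts in 6 libraries, Slfn3 in 4 and Slfn5 in 3. Together the 6 members took between 0.0305% (liver NK RARα403 replicate 1) and 0.0948% of a library's counts.

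**Figure D2:**
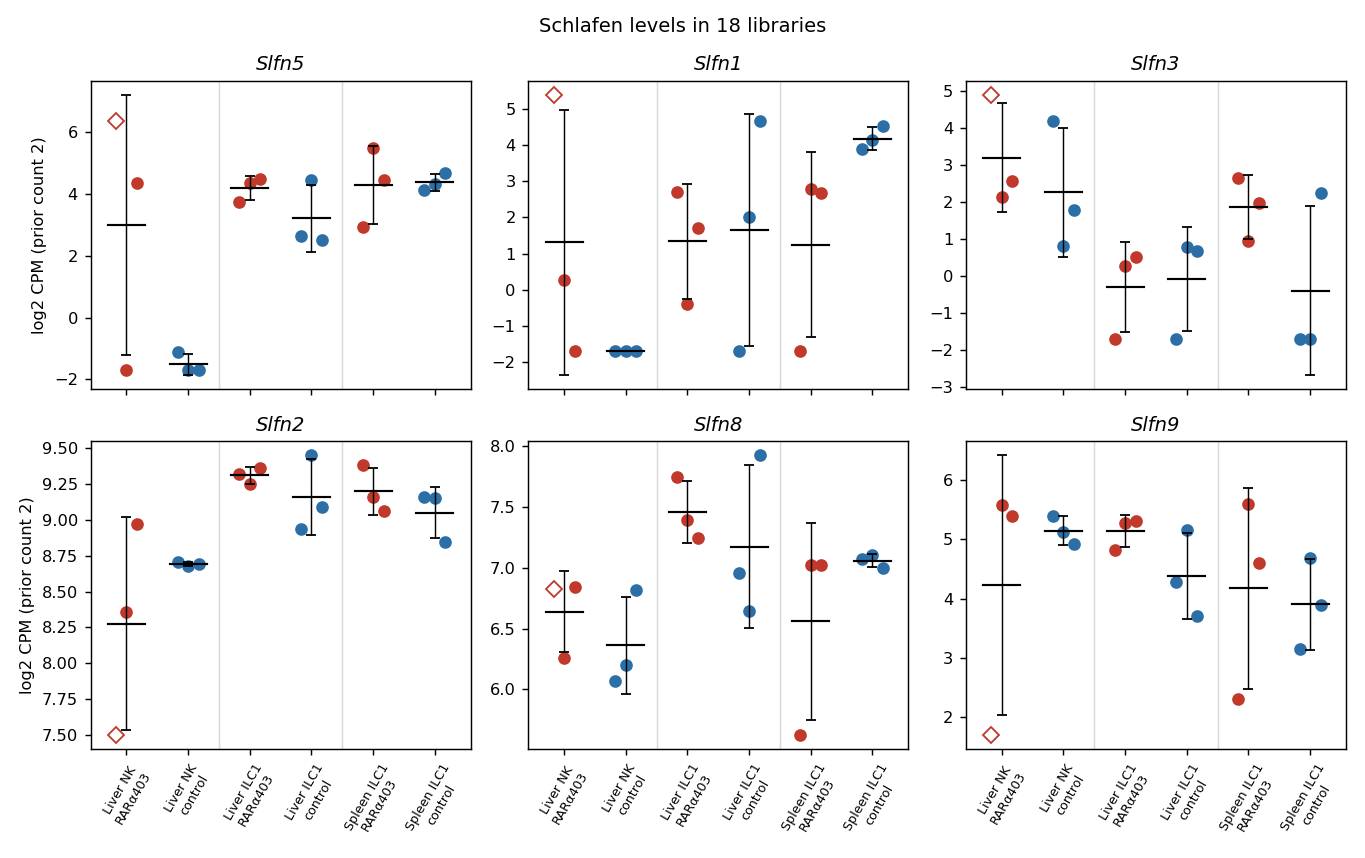
Level of each member in each library as log2 CPM with a prior count of 2, in the 6 groups, with RARα403 in red and control in blue. Lines are group means and bars 1 SD over 3 libraries; the open diamond is liver NK RARα403 replicate 1. Slfn5 and Slfn1 are at the bottom of their axes in control NK cells, and RARα403 NK libraries are spread from there to the top.

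In liver NK cells, the contrast that chose the family, Slfn5 was present in 2 of 3 RARα403 libraries and next to absent in control libraries. It had 339, 0 and 120 counts in RARα403 replicates 1, 2 and 3, against 1, 0 and 0 counts in control replicates, or 82.8, 0 and 20 CPM against 0.156, 0 and 0 CPM. Scaled to the library total alone, RARα403 replicate 1 was at 56 CPM. The groups overlapped, because RARα403 replicate 2 was at 0. Over all libraries of a group, 459 counts stood against 1 count, a ratio of 463 with a 95% counting interval of 82.8 to 18344 that covers counting error only. Without RARα403 replicate 1 the ratio was 170, with an interval of 30.0 to 6786, and rested on the 120 counts of replicate 3. The fitted log2 fold change was 8.98, and 7.20 without that library. These values restate the difference that chose the family. Fitted fold changes of genes at 0 counts in most libraries of a group depend on the prior count and are no bounds.

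Slfn1 had 170, 8 and 0 counts in RARα403 NK replicates 1, 2 and 3 and 0 counts in all 3 control replicates, so that its highest value was again in replicate 1. Its mean in RARα403 NK cells was at least 31.9-fold higher than in control NK cells, taking 3 counts per library as the floor. Without replicate 1 its mean of 0.445 CPM was about the floor in control NK cells, 0.443 CPM. Its fitted log2 fold change was 9.52 with all libraries and 4.68 without replicate 1. Slfn3 had 121, 37 and 34 counts in RARα403 NK cells, against 116, 13 and 18 counts in control NK cells. Its log2 fold change of 0.79 became -0.62 without RARα403 replicate 1, and 2.49 without control replicate 1.

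The members that every library contained differed little in NK cells outside that library. Slfn2 was at 181, 328 and 502 CPM in RARα403 NK replicates, against 417, 410 and 414 CPM in control replicates, with a log2 fold change of -0.30, and -0.01 without RARα403 replicate 1. Slfn8 was at 113, 76.1 and 114 CPM, against 66.7, 73.2 and 113 CPM in control (log2 fold change 0.26, and 0.16 without it). Slfn9 was at 2.93, 47.9 and 41.7 CPM, against 41.8, 34.8 and 30 CPM in control (log2 fold change -0.20, and 0.32 without it). RARα403 replicate 1 was the lowest of the NK libraries for Slfn2 and Slfn9. Groups did not overlap for 0 of 6 members, against 3.77% of all genes with RARα403 higher and 4.72% with it lower. As the background of the choice, 0 of 14714 genes (0%) passed an adjusted p of 0.05 in this contrast in edgeR's quasi-likelihood test. Of these genes, 1418 had an unadjusted p under 0.05. Without replicate 1 a single gene, lower with RARα403, passed (0.00604%). The contrast chose the family, so these counts are no test of the members.

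ILC1 markers were uneven between the NK libraries with Slfn5. The 8 ILC1 markers summed to 408, 41.4 and 253 CPM in RARα403 NK replicates 1, 2 and 3, against 50.7, 132 and 83.6 CPM in control NK replicates, so that the 2 libraries with Slfn5 counts were also the 2 with the highest sums. In replicate 1 that sum was mostly Itga1 and Il7r. There Tnfsf10 and Inpp4b had 1 count each, against 95 to 171 and 13 to 191 counts in control NK cells, Tmem176a had 2, Tmem176b and Cxcr6 had 0, and Zfp683 had 14. Itga1, which encodes CD49a, had 798, 43 and 1 counts in RARα403 NK replicates, against 0, 37 and 10 counts in control, and Cxcr6, a chemokine receptor of liver ILC1s, had 0, 0 and 88 counts, against 0, 2 and 0 counts. Il7r, the interleukin-7 receptor, had 855, 84 and 864 counts, against 185, 642 and 215 counts. Replicate 3 had 311 counts of Tnfsf10 and 213 of Inpp4b, above every control NK library, and 1 count of Itga1. The part of these markers in the Slfn5 counts was not tested. T cell markers were at 1.71 and 5.67 CPM in the 2 RARα403 NK libraries with Slfn5, within the range of control NK libraries, 1.71 to 17.8 CPM. In bulk samples, fewer cells with a transcript and less transcript per cell cannot be told apart.

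**Figure D3:**
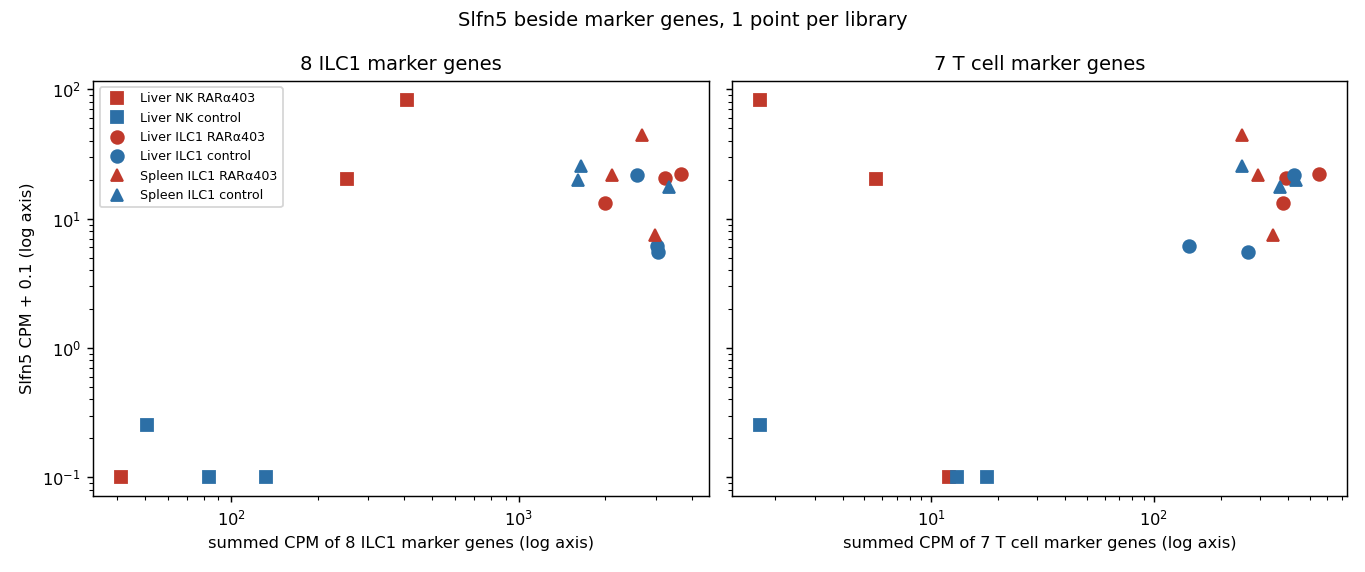
Slfn5 CPM plus 0.1 in each of the 18 libraries against the summed CPM of 8 ILC1 markers (left) and 7 T cell markers (right), all on log axes. The 2 RARα403 NK libraries with Slfn5 have ILC1 marker sums of 253 and 408 CPM, above the 3 control NK libraries, while their T cell marker sums are 5.67 and 1.71 CPM.

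Control ILC1s of both organs contained Slfn5, and control NK cells lacked it but for 1 count. Slfn5 had 44, 76 and 25 counts (6, 21.8 and 5.42 CPM) in control liver ILC1s, against 1, 0 and 0 counts in control liver NK cells, and no ILC1 library overlapped an NK library. The 145 counts against 1 gave a ratio of 202, with a counting interval of 35.7 to 8029. In control spleen ILC1s it had 144, 145 and 144 counts (17.4, 19.8 and 25.4 CPM), and the 433 counts against 1 gave a ratio of 441, from 78.8 to 17466. The log2 fold change was 7.35 ± 1.84 (SE derived from the test statistic, 3 libraries against 3) for liver ILC1s, with an adjusted p of 0.105 in edgeR's quasi-likelihood test. For spleen ILC1s it was 8.27 ± 1.87, with an adjusted p of 0.0957 in that test. Neither passed 0.05 with all libraries in the fit. With liver NK RARα403 replicate 1 left out of the shared fit, both passed, at 7.35 ± 1.66 with an adjusted p of 0.0321 and at 8.29 ± 1.69 with an adjusted p of 0.0243 in the same edgeR test. These comparisons use the control NK libraries that took part in choosing Slfn5, and are therefore no independent test of Slfn5. For liver ILC1s, DESeq2, limma-voom and edgeR with no filter on low counts or only the groups compared gave adjusted p-values from 2.43e-06 to 0.0461. Slfn5 did not pass for liver in edgeR with RLE size factors, with replicates 2 and 3 only or with replicate terms on all libraries. It did not pass with a term for the leading digit of the sample code either. The settings that did not pass gave adjusted p-values from 0.1097 to 0.329 in edgeR. Leaving out 1 library of the groups compared gave 0.173 to 0.467 for liver and 0.162 to 0.468 for spleen in edgeR. Leaving out any further library of the groups compared, beside liver NK RARα403 replicate 1, gave an adjusted p of 0.0498 to 0.150 for liver and 0.0435 to 0.134 for spleen in edgeR.

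Slfn1 was also confined to ILC1 libraries among controls, but unevenly. It had 0, 13 and 116 counts in control liver ILC1s and 120, 127 and 128 counts in control spleen ILC1s, against 0 counts in the 3 control NK libraries. The means were at least 21.7-fold higher in liver ILC1s and at least 40.9-fold higher in spleen ILC1s than in NK cells, with 3 counts per library as the floor. In liver 116 of 129 counts came from control replicate 3, and without it the mean was at least 4.20-fold higher. Liver ILC1s overlapped NK cells at 0, and spleen ILC1s did not overlap them. Neither difference passed in edgeR with all libraries (adjusted p 0.385 for liver and 0.419 for spleen), and DESeq2 called both (adjusted p 0.0118 and 0.00424).

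Slfn3 ran the other way, with 0, 5 and 6 counts in control liver ILC1s and 0, 0 and 25 counts in control spleen ILC1s, against 116, 13 and 18 counts in control NK cells. Its log2 fold change was -3.06 ± 1.91 for liver ILC1s (adjusted p 0.794) and -2.36 ± 1.84 for spleen ILC1s (adjusted p 1, edgeR). Liver ILC1s did not overlap NK cells, and spleen ILC1s overlapped them through replicate 3.

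Slfn2 was at 490, 698 and 543 CPM in control liver ILC1s and 570, 568 and 459 CPM in control spleen ILC1s, against 417, 410 and 414 CPM in control NK cells, and ILC1 libraries of both organs lay above every NK library. The log2 fold changes were 0.48 ± 0.28 and 0.36 ± 0.28, with adjusted p of 0.761 and 1 in edgeR. Slfn8 was at 124, 99.7 and 243 CPM in control liver ILC1s and 134, 138 and 128 CPM in control spleen ILC1s, against 66.7, 73.2 and 113 CPM in control NK cells (log2 fold changes 0.89 ± 0.40 and 0.66 ± 0.40, adjusted p 0.607 and 0.839 in edgeR). Slfn9, the near copy of Slfn8, had the opposite sign, at 19.1, 35.2 and 12.8 CPM in liver ILC1s and 8.58, 25.4 and 14.5 CPM in spleen ILC1s, against 41.8, 34.8 and 30 CPM in NK cells (-0.67 ± 0.82 and -1.14 ± 0.83). Spleen ILC1 libraries did not overlap NK libraries for either gene.

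In all, edgeR called 0 of 6 members in control liver ILC1s over control NK cells, where 89 of 14714 genes were called (0.605%), and 3 members had an unadjusted p under 0.05. It called 0 of 6 in control spleen ILC1s over control NK cells, where 46 genes were called (0.313%), with 2 members under 0.05 unadjusted. Without liver NK RARα403 replicate 1 it called 1 of 6, Slfn5, in each, among 290 genes (1.75%) and 154 genes (0.93%) of 16565; for Slfn5 this rests on the control NK values that chose it. DESeq2 called Slfn1 and Slfn5 in both, among 2.85% and 2.12% of genes. Limma-voom called Slfn5 in liver, among 3.26% of genes, and Slfn1 and Slfn5 in spleen, among 1.77%. Groups did not overlap with ILC1s higher for 2 members in liver (8.71% of all genes), Slfn2 and Slfn5, and for 4 in spleen (8.99%), Slfn1, Slfn2, Slfn5 and Slfn8. They did not overlap with ILC1s lower for 1 member in each organ, Slfn3 in liver (8.53% of all genes) and Slfn9 in spleen (6.89%). Of the 7 T cell markers, 7 had a log2 fold change above 0 in ILC1s of either organ, with medians of 5.32 in liver and 7.75 in spleen, and edgeR called 1 in each. The part of T cell markers in these Schlafen differences was not tested.

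**Figure D4:**
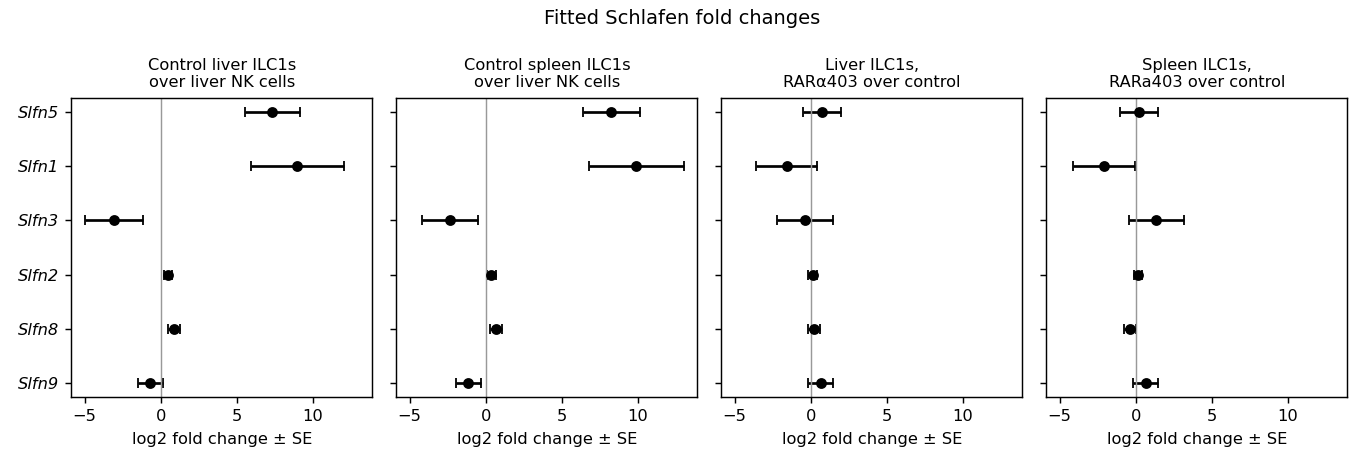
Fitted log2 fold change of each member with its SE, derived from the test statistic, from the fit of all 18 libraries, for 4 comparisons. In control ILC1s over control NK cells, Slfn5 is at 7.35 and 8.27 and Slfn1 at 8.97 and 9.89, and none of these passed in edgeR. Control NK cells had 1 count of Slfn5 and 0 counts of Slfn1, so these values depend on the prior count and are no bounds. Slfn5 was chosen with those control NK libraries. The RARα403 comparisons in ILC1s lie between -2.10 and 1.37.

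No member passed the threshold for RARα403 over control in ILC1s. The ILC1 libraries were not in the contrast that chose the genes, but they shared its estimate of spread. In liver ILC1s Slfn5 had 84, 136 and 156 counts (13.1, 20.4 and 22 CPM) with RARα403, against 44, 76 and 25 counts (6, 21.8 and 5.42 CPM) in control. Control replicate 2 lay within the RARα403 range and the other control libraries below it. The log2 fold change was 0.75 ± 1.25 (adjusted p 1, edgeR). In spleen ILC1s Slfn5 had 48, 270 and 166 counts (7.42, 44.3 and 21.5 CPM) with RARα403, against 144, 145 and 144 counts (17.4, 19.8 and 25.4 CPM) in control, so that RARα403 libraries lay on both sides of tightly grouped controls (log2 fold change 0.23 ± 1.23, adjusted p 1, edgeR).

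Slfn1 was lower with RARα403 in every spleen ILC1 library, at 0, 40 and 47 counts (0, 6.56 and 6.09 CPM), against 120, 127 and 128 counts (14.5, 17.3 and 22.6 CPM) in control, with no overlap between the groups. Of all genes, 5.02% had groups that did not overlap in that direction in this comparison. The log2 fold change was -2.10 ± 2.03 with an adjusted p of 1 in edgeR, so the difference did not pass. In liver ILC1s Slfn1 had 40, 3 and 21 counts with RARα403, against 0, 13 and 116 counts in control, and the log2 fold change of -1.58 ± 2.00 (adjusted p 1, edgeR) turned to 0.82 without control replicate 3. Slfn3 had 0, 6 and 8 counts with RARα403 in liver ILC1s, against 0, 5 and 6 counts in control. In spleen ILC1s it had 39, 10 and 28 counts with RARα403, against 0, 0 and 25 counts in control (log2 fold change 1.37 ± 1.79, adjusted p 1, edgeR).

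The quiescence gene Slfn2 was nearly the same in both genotypes. It was at 637, 607 and 658 CPM in RARα403 liver ILC1s, against 490, 698 and 543 CPM in control (log2 fold change 0.14 ± 0.28). It was at 666, 571 and 533 CPM in RARα403 spleen ILC1s, against 570, 568 and 459 CPM in control (log2 fold change 0.15 ± 0.28). Slfn8 was at 214, 168 and 152 CPM in RARα403 liver ILC1s, against 124, 99.7 and 243 CPM in control (0.19 ± 0.39), and at 49, 130 and 130 CPM in RARα403 spleen ILC1s, against 134, 138 and 128 CPM in control (-0.37 ± 0.39). Slfn9 was at 28, 38.5 and 39.4 CPM in RARα403 liver ILC1s, against 19.1, 35.2 and 12.8 CPM in control (0.66 ± 0.82). In spleen ILC1s Slfn9 was at 4.64, 48.4 and 24.1 CPM with RARα403, against 8.58, 25.4 and 14.5 CPM in control (0.67 ± 0.82). These groups overlapped for each of the 3 genes in each organ. Over the family, 0 of 6 members had groups that did not overlap in liver ILC1s, against 5.08% of all genes with RARα403 higher and 4.43% with it lower. In spleen ILC1s 0 of 6 did with RARα403 higher (4.12% of all genes), and 1 of 6, Slfn1, with it lower.

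Averaged over the ILC1s of both organs, the log2 fold changes for RARα403 over control were -1.84 ± 1.42 for Slfn1, 0.14 ± 0.20 for Slfn2, 0.49 ± 1.28 for Slfn3, 0.49 ± 0.88 for Slfn5, -0.09 ± 0.28 for Slfn8 and 0.67 ± 0.58 for Slfn9. EdgeR called 0 of 6 members in liver ILC1s, in spleen ILC1s and in both organs together, and 0 of 6 had an unadjusted p under 0.05 in any of these. DESeq2 called 0 of 6 as well, where it called 0.224%, 0.136% and 0.285% of genes, and limma-voom called 0 of 6, where it called 0%, 0% and 0.0476%. NK markers summed to 1255, 253 and 253 CPM in RARα403 liver ILC1s, against 424, 307 and 228 CPM in control liver ILC1s. Only RARα403 replicate 1 lay outside the control range. B cell markers summed to 36.6 to 277 CPM in RARα403 spleen ILC1s, against 23 to 1556 CPM in control spleen ILC1s. The part of NK and B cell markers in the Schlafen values was not tested. In edgeR the background was 0 of 14714 genes (0%) in each, with 432, 425 and 600 genes under 0.05 unadjusted. Without liver NK RARα403 replicate 1, edgeR called 3 of 16565 genes in both organs together (0.0181%), and 0 of 6 members. For the difference of the RARα403 effect between spleen and liver ILC1s, edgeR called 0 of 6 members and 0 of all genes (0%), with 0 members under 0.05 unadjusted and an adjusted p of 1.00 for each member. DESeq2 called 0 of 6 members there and 0.122% of genes, and limma-voom 0 of 6 and 0%. With SEs of 1.23 to 2.03 log2 units for the sparse members Slfn1, Slfn3 and Slfn5 in a single organ, changes of several-fold were not detectable at this depth and spread.

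Between the organs, control spleen ILC1s and control liver ILC1s had overlapping levels of all 6 members, while 5.1% of all genes did not overlap with spleen higher and 4.15% with spleen lower. The log2 fold change for spleen over liver was 0.92 ± 1.25 for Slfn5, 0.91 ± 1.96 for Slfn1, 0.70 ± 1.81 for Slfn3, -0.12 ± 0.28 for Slfn2, -0.22 ± 0.39 for Slfn8 and -0.47 ± 0.82 for Slfn9. Among RARα403 mice, Slfn8 was lower in every spleen ILC1 library than in any liver ILC1 library, at 49, 130 and 130 CPM against 214, 168 and 152 CPM (-0.79 ± 0.40, adjusted p 1, edgeR), a pattern 4.72% of genes had. Slfn3 was higher in every RARα403 spleen ILC1 library, with 39, 10 and 28 counts against 0, 6 and 8 counts in liver (2.44 ± 1.85, adjusted p 1, edgeR), a pattern 4.24% of genes had. EdgeR, DESeq2 and limma-voom called 0 of 6 members between organs in either genotype, and edgeR and limma-voom called 0 of 14714 genes (0%). DESeq2 called 0.177% of genes in control and 0.204% in RARα403 mice.

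Because Slfn8, Slfn9 and Slfn10-ps share sequence, their counts were also summed. The sum was 222 ± 104 CPM in RARα403 NK cells and 222 ± 46 CPM in control NK cells (SD, n = 3 each). It was 309 ± 41.2 CPM in RARα403 liver ILC1s and 231 ± 88.2 CPM in control liver ILC1s, and 201 ± 95.2 CPM in RARα403 spleen ILC1s and 221 ± 57 CPM in control spleen ILC1s. The split within the sum also varied. Slfn8 made up 29.9% to 44.7% of it in control NK libraries and 95.5% in liver NK RARα403 replicate 1, where Slfn9 had 12 counts and the pseudogene 10. In ILC1 libraries the Slfn8 share ran from 46.5% to 83.2%.

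The remaining family genes were low. Slfn4, a myeloid-expressed member, had 90 counts in spleen ILC1 control replicate 3, the library with the highest sums of B cell markers and of macrophage and monocyte markers (478 CPM). Liver ILC1 control replicate 1, with the next highest macrophage and monocyte sum (295 CPM), had 17 counts, and no other library had more. Spleen ILC1 control replicate 1 had 12 counts at a sum of 8.58 CPM. Liver ILC1 RARα403 replicate 2 (109 CPM) and spleen ILC1 control replicate 2 (76.6 CPM) had 0 counts. The part of these markers was not tested. Slfn14 had 1 count in all. Of protein-coding genes past the filter on low counts, the 10 nearest that flank the cluster, from Zfp830 to Heatr9, were called in 0 of the 8 tested comparisons by edgeR. Their median log2 fold change was -0.49 in control liver ILC1s over control NK cells, against 0.03 for all genes, and 4 of 10 lay above 0.

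Over the 17 libraries without liver NK RARα403 replicate 1, the genes whose log2 CPM went most like Slfn5 were Tiam1, which activates the GTPase Rac (Pearson r = 0.90, Spearman rho = 0.65), Pip5k1b, a lipid kinase (r = 0.89, rho = 0.62), and Il7r (r = 0.89, rho = 0.76), of 9436 genes eligible. Il7r encodes a receptor of the ILC1 gate. Over all 18 libraries the r values were 0.91, 0.65 and 0.83, and as deviations from group means 0.66, 0.71 and 0.78. For Slfn2, Espn was among them (r = 0.86, and 0.73 over 18 libraries). For Slfn8 they were Itpr2 (0.83 and 0.34), Sntb2 (0.83 and 0.76) and Tlr12 (0.82 and 0.70). For Slfn1 they were Isyna1 (0.85 and 0.86), Xpa (0.83 and 0.76) and Twf2 (0.82 and 0.14). Several of these relations thus did not extend to liver NK RARα403 replicate 1. For Slfn3 they were Gab2 (0.89 and 0.57), Trrap (0.83 and 0.74) and Ranbp2 (0.81 and 0.82), and for Slfn9 Ripor1 (0.87 and 0.15), Ing5 (0.86 and 0.91) and Mcmbp (0.85 and 0.83). Among the members, Slfn2 and Slfn5 had the highest r over these 17 libraries (0.78, against 0.21 over 18 libraries and 0.60 as deviations from group means), and the near copies Slfn8 and Slfn9 an r of 0.08. The libraries share depth and amplification, and these values are descriptions with no test.

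Interferon-induced genes, the class to which Schlafen genes are counted, were described from a list of 49, of which 47 were tested. EdgeR called 0 of 47 in each of the 8 tested comparisons. In control liver ILC1s over control NK cells 38 of 47 had a log2 fold change above 0, with a median of 0.60 against 0.03 for all genes, and in control spleen ILC1s over control NK cells 41 of 47, with a median of 0.65 against 0.06. The smallest p belonged to Ifit1, which blocks translation of viral RNA, at 10.84 ± 3.41 for liver (adjusted p 0.304) and 10.64 ± 3.40 for spleen (adjusted p 0.426, edgeR). With RARα403 the medians were -0.24 in liver ILC1s and -0.29 in spleen ILC1s, with 15 and 11 of 47 above 0. In NK cells, where Slfn5 was chosen, the median was 0.17 with 27 of 47 above 0, and no test is given.

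Of 18 interferon receptor and signalling genes, edgeR called 0 in each comparison with all libraries. Without liver NK RARα403 replicate 1, Ifngr1, a chain of the interferon-γ receptor, the kinase Tyk2 and the kinase Jak1 were lower in control liver ILC1s than in control NK cells (-0.96 ± 0.18, -1.12 ± 0.23 and -0.997 ± 0.245, adjusted p 0.0114, 0.0155 and 0.0498, edgeR). Ifngr1 was also lower in control spleen ILC1s (-0.93 ± 0.18, adjusted p 0.0203). Of 22 quiescence genes, the process Slfn2 belongs to, edgeR called 0 with all libraries in each comparison. Without that library Vsir, an inhibitory receptor of resting T cells, was higher in control liver ILC1s than in control NK cells (1.11 ± 0.18, adjusted p 0.00287) and in control spleen ILC1s (0.98 ± 0.18, adjusted p 0.0103, edgeR). The transcription factor Klf2 was lower in liver ILC1s (-2.72 ± 0.58, adjusted p 0.0223), and Il7r was higher in liver and spleen ILC1s (adjusted p 0.0498 and 0.0140, edgeR), a gene whose product was used to sort ILC1s.

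For RARα403 over control in ILC1s, these lists had no calls. Of 15 genes of tRNA cleavage and oxidative stress, the process in which Slfn2 is known to protect transfer RNA, and of 26 cell cycle genes, edgeR called 0 in each comparison. The cell cycle median was -1.22 in RARα403 over control liver ILC1s, with 4 of 26 above 0, and 0.91 in spleen ILC1s, with 24 of 26 above 0, against 0 and -0.003 for all genes. Summed, these genes were at 744, 1830 and 1323 CPM in RARα403 liver ILC1s, against 2328, 2025 and 1493 CPM in control. In spleen ILC1s they were at 2671, 1473 and 1021 CPM with RARα403, against 1133, 1185 and 947 CPM in control. The groups overlapped in each organ. RARα403 replicate 1 had the lowest sum in liver and the highest in spleen. Among quiescence genes, Klf2 and Tcf7, a transcription factor of resting lymphocytes, had the smallest p in liver ILC1s (1.62 ± 0.70 and 1.06 ± 0.47, adjusted p 1 each, edgeR), while Slfn2 was at 0.14 ± 0.28.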

How the data were processed

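RNA was amplified with SMART-seq HT from 200 sorted cells per library. Per the submitters' processing notes, the authors trimmed reads with fastp 0.23.0, aligned them to mm10 with HISAT2 2.1.0 and counted them with featureCounts of Subread 1.6.5. The values deposited by the authors are whole-number counts per gene, not normalized. Strand setting, annotation release and the treatment of multi-mapping reads were not stated.

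Counts of 18 libraries were fitted together in edgeR 4.0.16 (R 4.3.3): filterByExpr with a minimum count of 10, TMM normalization, 1 coefficient per group, quasi-likelihood test, Benjamini-Hochberg adjustment over all genes tested and a threshold of 0.05. The SE of a log2 fold change is its absolute value divided by the square root of its quasi-likelihood F statistic. It thus rests on the spread shared over the fit and was not estimated separately. Log2 CPM used a prior count of 2, and levels were compared between genes only per kb of exon (GENCODE M21). The script was tested on simulated data. Alternatives were DESeq2 1.42.0, limma-voom 3.58.1, RLE size factors, no filter and subsets of libraries. Limma-voom was run with sample quality weights throughout, so libraries need not count equally in it. Replicate terms and a term for the leading digit of the sample code were further alternatives. That digit is 1 for replicate 1 and 2 for replicates 2 and 3 of each group, and what it stands for is not stated. Alternatives that combine another change with leaving out liver NK RARα403 replicate 1 were chosen after seeing the data. Members and gene lists were chosen with earlier results of these data known. Besides members, the genes named were those with the smallest p in a list, those called, and those most alike by Pearson r. Some genes that this rule names are not reported here.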

Additional observations from a re-analysis of the deposited data

How the results depend on the processing

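For control liver ILC1s over control NK cells, 0 of 6 members were called with all libraries, 1 (Slfn5, chosen on these NK libraries) without liver NK RARα403 replicate 1, 2 by DESeq2, 1 by limma-voom, 2 with no filter and 1 with only the groups compared; for control spleen ILC1s the counts were 0, 1, 2, 2, 2 and 2. Leaving out 1 more library of these groups, beside liver NK RARα403 replicate 1, gave 0 to 1 called in each organ. Over all genes, 89 were called for liver by edgeR, against 419 by DESeq2, 479 by limma-voom, 355 with no filter, 343 with only the groups compared and 290 without that library; for spleen 46, against 312, 261, 316, 92 and 154. Leaving out 1 library gave 18 to 55 and 7 to 34 genes.

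The replicate block left 0 members called and 69 genes for liver and 25 for spleen, and within genotype 29 and 13 genes. Within genotype, Slfn5 was at an adjusted p of 0.329 for liver and 0.340 for spleen in edgeR. The term for the leading digit of the sample code left 86 and 37 genes, with Slfn5 at an adjusted p of 0.135 and 0.122 in edgeR. With the block and without liver NK RARα403 replicate 1, 1 member (Slfn5) was called for spleen. Same-numbered libraries of the same genotype had correlations of deviations from 0.0163 to 0.124, against -0.117 to 0.0354 for different numbers. Same-numbered ILC1 libraries of different genotypes, which cannot share a mouse, had -0.033 to 0.245, against -0.192 to 0.152. Same-numbered libraries of a genotype also share the last digit of the sample code across liver NK cells, liver ILC1s and spleen ILC1s. What that last digit stands for is not stated. The labels do not say that the numbers pair libraries, so the main fit had no block. Any such pairing is left out of its p-values. What same-numbered libraries share was not tested. For Slfn3 in control spleen over liver ILC1s, the block turned 0.70 to -0.0402, and to -0.84 within genotype.

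Other log2 fold changes that changed sign, none of them called, were that Slfn3 value in limma-voom (-1.35), Slfn8 in both organs in limma-voom (0.0156), and, with replicates 2 and 3, Slfn8 in liver ILC1s (-0.11) and Slfn3 in both organs (-0.0825) for RARα403 over control. Leaving out 1 library each, RARα403 over control ranged in liver ILC1s from -2.48 to 0.82 for Slfn1, -0.99 to 0.19 for Slfn3 and -0.0441 to 0.67 for Slfn8; in spleen ILC1s from -0.52 to 0.67 for Slfn5 and -0.16 to 1.17 for Slfn9; and in both organs from -0.21 to 0.15 for Slfn8. Control spleen over liver ILC1s ranged from -0.23 to 0.0416 for Slfn2, -5.58 to 1.29 for Slfn3, -0.46 to 0.25 for Slfn8 and -0.96 to 0.0179 for Slfn9. RARα403 spleen over liver ILC1s ranged from -0.12 to 1.29 for Slfn1, -0.35 to 0.84 for Slfn5 and -1.29 to 0.0436 for Slfn9. The causes were not tested. In fits of only the groups compared, the filter removed Slfn1 for control liver ILC1s over control NK cells, which gave no value. Depth limits Slfn1, Slfn3 and Slfn5, which lay at or below 3 counts in 7, 4 and 4 of 18 libraries.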
